A study of Mus musculus with 15 samples.

Results

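The genes described here make sterols and fatty acids or govern that synthesis. They were taken by symbol from a list of 33 mouse genes, all 33 of which were found among the 53380 features counted. By role, 8 lead from acetyl-CoA through mevalonate to farnesyl and geranylgeranyl diphosphate, 11 carry out the squalene and sterol steps, 5 control SREBP, 3 move sterols, and 6 belong to lipogenesis. The counts come from mouse leukemia cells (T-ALL, for T-cell acute lymphoblastic leukemia) of the EμSRα-tTA/tet-O-MYC/FVB/N model, in which the EμSRα promoter drives the tet-transactivator in lymphoid cells and doxycycline shuts the human MYC transgene down. PolyA RNA was sequenced at 0, 2, 4, 8 and 24 h after doxycycline, 15 libraries in total and 3 for each time. The 0 h cells had a mock treatment and are in the MYC on state, and cells of every time point carry the transgene and grew in medium with fetal bovine serum. Whether replicate libraries came from separate cultures is not given in the labels, so the p-values measure the spread between these libraries, which may be technical.

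Cells build cholesterol from acetyl-CoA. Hydroxymethylglutaryl-CoA is made and reduced to mevalonate, which is converted to isoprenoid diphosphates, then to squalene, and then through lanosterol to cholesterol. SREBP transcription factors switch these enzymes on. SREBP precursors sit in the endoplasmic reticulum bound to SCAP, which carries them to the Golgi for cleavage when sterol is low, whereas INSIG proteins hold SCAP back when sterol is plentiful. SREBP-2 acts mainly on sterol genes and SREBP-1 mainly on fatty acid genes such as Fasn, Acaca and the stearoyl-CoA desaturases. In dividing leukemia cells both routes supply membrane lipid, and MYC is known to bind promoters of lipogenic genes together with SREBP.

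Library totals ranged from 25852711 to 27102318 counts. The MYC transgene was at 24.8 ± 1.98 CPM at 2 h and 3.29 CPM at 24 h, against 2024 ± 52.3 CPM at 0 h (SD, n = 3). CPM here are read counts scaled to a common library total with edgeR's TMM factors. The T cell marker list (8 genes, none at 0 counts) summed to 5447 to 6145 CPM at 24 h, against 3246 to 3295 CPM at 0 h. Markers of B cells (4 genes, 2 to 3 of them at 0 counts) summed to at most 0.367 CPM in any library. The 5 macrophage genes summed to 24.9 to 31.9 CPM at 24 h and 10.5 to 12.4 CPM at 0 h, with 1 or 2 of them at 0 counts at each time. They did not move together. Itgam had a mean of 20.6 CPM at 24 h and 2.58 CPM at 0 h, and Cd68 had 1.60 and 1.00 CPM. Csf1r had 5.82 CPM at 24 h and 8.15 CPM at 0 h. Lyz2 was at 0 CPM at both times, and Adgre1 was at 0.022 and 0 CPM. The part of these genes in the results was not tested. The library 24 h replicate 3 stood apart. Its counts differed from those of the other 24 h libraries with a chi-square per degree of freedom of 77.7 and 85.4, against 2.81 to 16.5 for the other pairs of replicates. In this library 3.43% of counts fell on ribosomal protein genes, and in the other 24 h libraries 5.37% and 5.70% did. Results at 24 h are therefore given with and without it, and its part in them beyond that was not tested. In bulk samples, fewer cells that express a gene and less RNA per cell cannot be told apart.

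Of the members, 26 have a promoter window in RefSeq (GRCm38.p6), from 250 bases before to 50 bases after the annotated start. The windows were searched on both strands for TCACNCCAC, a form of the sterol regulatory element bound by SREBP, for CACGTG, the E-box that MYC with MAX and other factors can bind, for CCAAT, the NF-Y box, and for GGGCGG, the GC box of SP1. TCACNCCAC was in the window of Hmgcs1 and of no other member, 1 of 26 against 1.44% of all 27025 genes. CACGTG was in 6 of 26 (Hsd17b7, Sc5d, Dhcr7, Scap, Insig1 and Abca1) against 8.09% of all genes. CCAAT was in 21 of 26 against 41.1%, and GGGCGG was also in 21 of 26 against 38.2%. These shares are over all genes with a window and are not limited to genes expressed in these cells. The 26 members had 34 windows, and the 27025 genes had 32851. How far either point raises the shares of the members was not tested. None of these motifs contains another, although matches can share bases, as the CCAAT boxes of both strands do in Fasn. A match describes letters and is no evidence of binding. The stretches below are shown because their genes carry the results that follow. They are written on the strand of the gene, with TCACNCCAC, CACGTG and CCAAT (or ATTGG, its other strand) in capitals. Hmgcs1 and Msmo1 had the largest rises of sterol genes at 2 h, Fasn had fallen most at 2 h, and Scap, Insig1 and Hsd17b7 each hold the E-box and moved in different ways.
Hmgcs1, chr13:119690174-119690262 (+ strand): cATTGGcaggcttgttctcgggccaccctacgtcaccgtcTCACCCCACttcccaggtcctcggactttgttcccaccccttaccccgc
Msmo1, chr8:64733589-64733778 (- strand): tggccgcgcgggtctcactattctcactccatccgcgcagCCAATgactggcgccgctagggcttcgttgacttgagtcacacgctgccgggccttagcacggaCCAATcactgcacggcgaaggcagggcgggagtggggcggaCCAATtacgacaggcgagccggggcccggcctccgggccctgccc
Fasn, chr11:120824562-120824677 (- strand): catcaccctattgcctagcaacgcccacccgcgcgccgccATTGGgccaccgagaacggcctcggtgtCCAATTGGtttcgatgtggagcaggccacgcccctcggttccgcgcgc
Scap, chr9:110333304-110333333 (+ strand): cgccgccgggagCACGTGtggagggcggcg
Insig1, chr5:28071271-28071356 (+ strand): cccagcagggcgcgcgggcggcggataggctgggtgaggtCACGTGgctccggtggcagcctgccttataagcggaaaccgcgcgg
Hsd17b7, chr1:169969303-169969388 (- strand): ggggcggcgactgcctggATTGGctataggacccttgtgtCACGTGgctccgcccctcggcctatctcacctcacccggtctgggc
The match to TCACNCCAC in Hmgcs1 begins 137 bases before the start, and the E-box begins 101 bases before the start in Insig1 and 143 in Hsd17b7. Scap has 2 annotated starts in RefSeq, and its E-box lies 28 bases after the first, inside the transcript, and 40 bases before the second, so only a short stretch around it is shown. Msmo1 and Fasn have no CACGTG in these windows.

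Within the first 2 h most of the movement in these genes was upward. Those called higher were genes of sterol synthesis, the desaturases, Srebf1 and Insig1. Of the 33 genes 32 passed the filter on low counts and were tested with edgeR's quasi-likelihood test, with the Benjamini-Hochberg adjustment taken over all 14485 genes tested and calls made under 0.01. At 2 h against 0 h 14 of the 32 were higher and 2 were lower. Of all tested genes 15.2% were called at this time, 6.6% higher and 8.59% lower. The members' median log2 fold change was 0.32, beside a median near 0.01 over all tested genes. The 4 h comparison had 7 higher and 8 lower members, against backgrounds of 18.1% and 19.9% (38.1% in either direction). The number higher at 4 h was 13 without 24 h replicate 3, without 4 h replicate 3 it was 4, and with upper-quartile factors it was 14. The 8 h comparison had 6 and 10, against backgrounds of 25.3% and 25.1% (50.4% in either direction). With upper-quartile factors it had 14 and 9. The median log2 fold change over all tested genes was then 0.24, against 0.09 with TMM factors. Every background given here is from the fit with TMM factors and all libraries. It does not apply to counts under another scaling or without a library, for which no background was computed. The 24 h comparison had 5 and 15, against backgrounds of 30.7% and 28.1% (58.8% in either direction). Without 24 h replicate 3 it had 8 and 15. On unscaled library totals the 24 h counts were 13 and 10. The members' median log2 fold change was 0.24 (4 h), 0.07 (8 h) and −0.18 (24 h), beside 0.08, 0.09 and 0.07 over all tested genes. In the test of all times together 29 of the 32 changed, against 74.2% of all tested genes, and those that did not pass were Fdft1, Ebp and Tm7sf2. The plot of shares called by time shows the 2 h share of higher members above its background and the later shares closer to theirs.

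**Figure D1:**
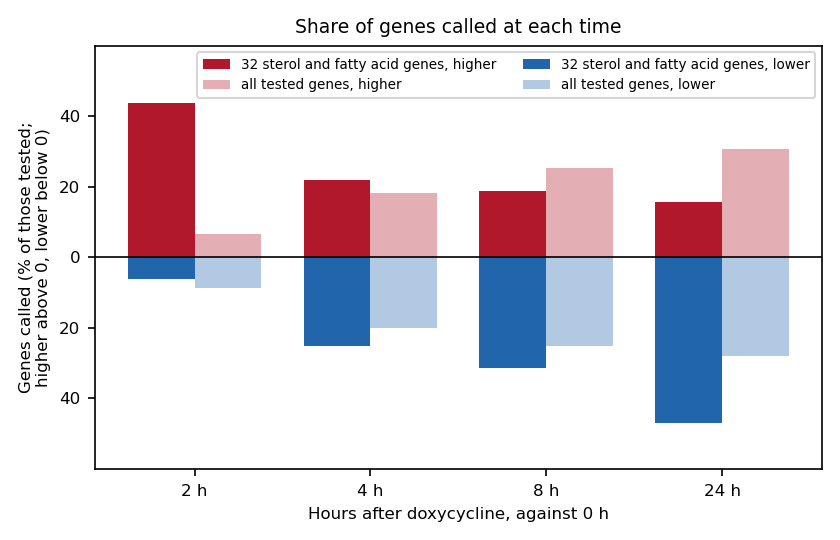
Share of genes called at 2, 4, 8 and 24 h against 0 h (x axis, hours after doxycycline), in percent of those tested (y axis, higher above 0 and lower below 0), for the 32 sterol and fatty acid genes tested (dark bars) and all 14485 genes tested (pale bars). At 2 h 43.8% of the members were higher, against 6.6% of all genes, and at 24 h 46.9% were lower, against 28.1%.

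**Figure D2:**
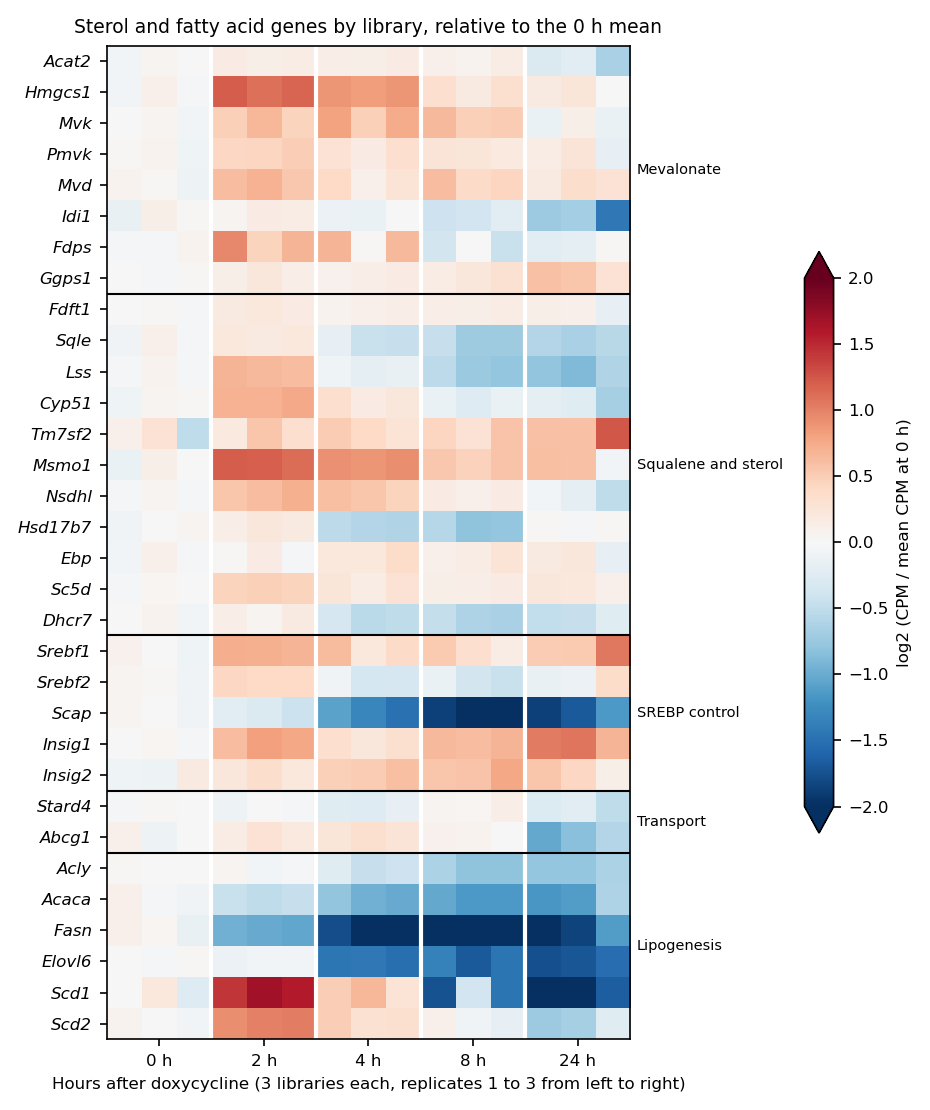
Level of each tested gene in each library (columns, 3 per time point) as the log2 of its CPM over its mean CPM at 0 h, grouped by role from top to bottom, with red above and blue below the 0 h mean. Most sterol genes and the desaturases are red at 2 h, and Fasn, Acaca, Elovl6, Acly and Scap are blue from 4 h on. The column of 24 h replicate 3 (last) departs from the other 24 h libraries in genes such as Idi1, Srebf1 and Fasn.

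The step after 2 h ran the other way. At 4 h against 2 h 17 of the 32 members were lower, against a background of 13%, and 0 were higher, against 7.72% (20.7% of all tested genes in either direction). In that direction 1 member passed an unadjusted p under 0.05 in edgeR and DESeq2 called 0. The members' median log2 fold change for this step was −0.29, beside 0.01 over all tested genes. All 6 lipogenesis genes, 6 of 11 squalene and sterol genes, 3 of 5 SREBP regulators and 2 of 8 mevalonate genes were lower at 4 h than at 2 h. The later steps moved fewer members. Between 4 and 8 h 8 were lower at the later time and 1 was higher, against backgrounds of 6.97% and 5.73% (12.7% in either direction). Between 8 and 24 h 7 were lower at 24 h and 1 was higher, against backgrounds of 17.3% and 20.8% (38.1% in either direction). Without 24 h replicate 3 the last step had 7 lower and 3 higher. The count of 8 lower at 8 h against 4 h was 4 without 4 h replicate 1 or 8 h replicate 3 and 5 without 0 h replicate 2, 0 h replicate 3, 2 h replicate 3, 4 h replicate 3 or 8 h replicate 2.

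**Figure D3:**
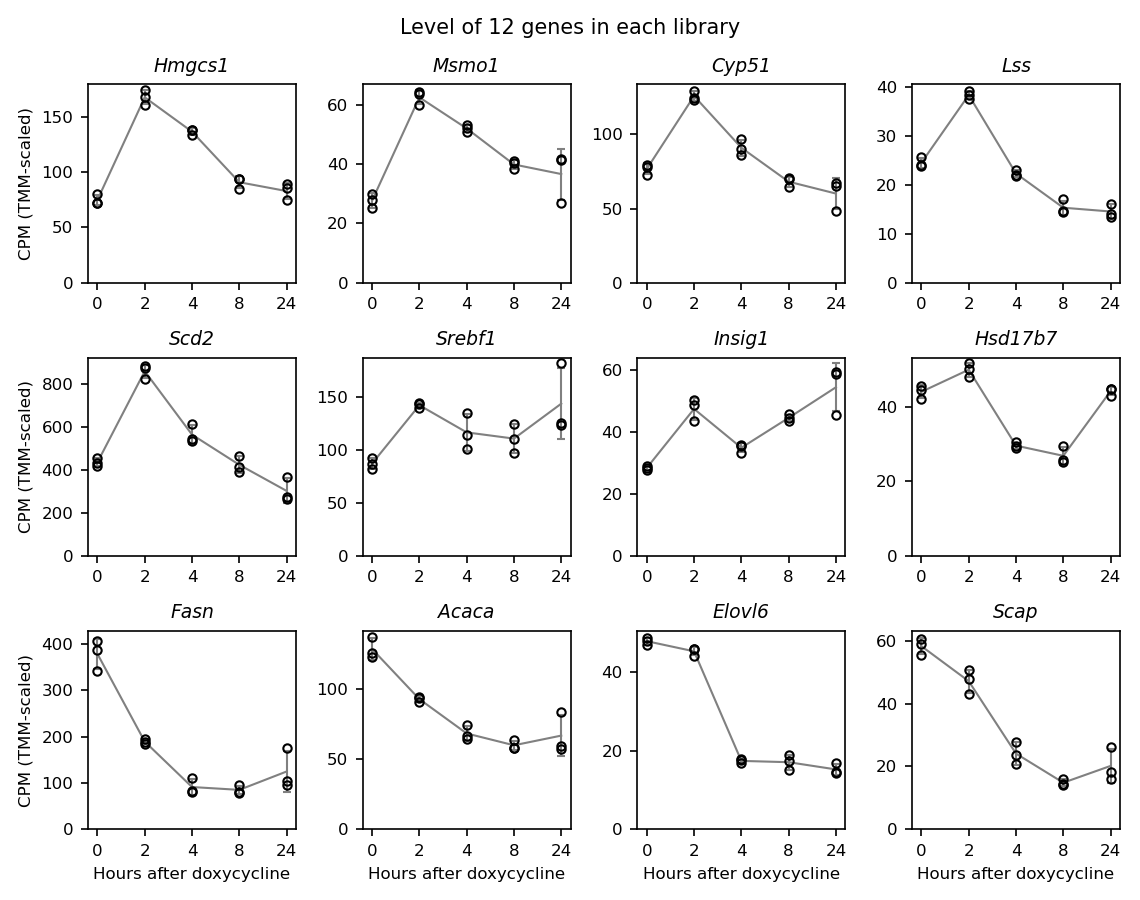
CPM (y axis, on TMM-scaled totals, from 0) of 12 genes in each library (open circles) at 0, 2, 4, 8 and 24 h after doxycycline (x axis, not to scale in time), with the mean and SD of 3 libraries in grey. Hmgcs1, Msmo1, Cyp51, Lss and Scd2 are highest at 2 h, and Fasn, Acaca, Elovl6 and Scap are highest at 0 h or at 0 and 2 h.

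Among the genes that lead from acetyl-CoA to the isoprenoid diphosphates, 5 of 8 were higher at 2 h. That was 62.5% of them, against 6.6% of all genes tested. The number higher was 2 at 4 h (25%, against 18.1%) and 3 at 8 h (37.5%, against 25.3%). By 24 h 1 was higher (12.5%, against 30.7%) and 2 were lower (25%, against 28.1%). Without 24 h replicate 3 the 24 h counts were 2 and 2, when Hmgcs1 also passed. Hmgcs1 encodes the cytosolic synthase that makes hydroxymethylglutaryl-CoA. It had 174, 161 and 168 CPM at 2 h, against 72.0, 80.4 and 72.6 CPM at 0 h. The groups were far apart, at 224% of the 0 h mean (log2 fold change 1.16, SE 0.07, adjusted p = 6.23e-08). Its level then came down, with 139, 133 and 138 CPM at 4 h, 94.4, 84.7 and 94.0 CPM at 8 h and 85.4, 89.1 and 74.6 CPM at 24 h. It was still higher at 4 h than at 0 h (log2 fold change 0.87, SE 0.07, adjusted p = 1.22e-07) and at 8 h (log2 fold change 0.28, SE 0.07, adjusted p = 0.00424). The fall at 8 h against 4 h passed the test (-0.59, adjusted p = 4.17e-05 for the log2 fold change), as did that at 4 h against 2 h (-0.30, adjusted p = 0.00609). The gene lies at chr13:119690379-119708260, + strand, and its exons overlap the antisense gene Gm48342, which moved alongside, with means of 23.3 CPM (0 h), 51.8 CPM (2 h), 42.8 CPM (4 h), 26.0 CPM (8 h) and 23.1 CPM (24 h). Without the strand setting of the counting, reads of the overlap cannot be assigned to either gene.

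The kinases and the decarboxylase that follow rose by less. Mvk, mevalonate kinase, had 15.7, 17.9 and 15.4 CPM at 2 h, against 11.3, 11.8 and 10.8 CPM at 0 h (log2 fold change 0.53, SE 0.10, adjusted p = 0.00151). Its 4 h libraries had 19.7, 15.8 and 18.8 CPM and its 8 h libraries 17.7, 15.7 and 16.0 CPM. Both times were called higher than 0 h, at a log2 fold change of 0.68 and 0.54, and the steps between them were not called. By 24 h it was at 10.3, 12.2 and 10.3 CPM, lower than at 8 h (-0.59, adjusted p = 0.000261, and -0.55, adjusted p = 0.000229 without 24 h replicate 3). Pmvk, phosphomevalonate kinase, had 34.2, 34.4 and 36.0 CPM at 2 h, against 25.9, 26.8 and 24.0 CPM at 0 h (log2 fold change 0.45, SE 0.09, adjusted p = 0.00228). Mvd, mevalonate diphosphate decarboxylase, had 21.7, 23.0 and 20.6 CPM at 2 h, against 14.8, 14.4 and 13.2 CPM at 0 h (log2 fold change 0.62, SE 0.09, adjusted p = 0.000176). In each of these 3 genes all 2 h libraries were above all 0 h libraries. Mvd was lower at 4 h than at 2 h (-0.36, adjusted p = 0.00782) and higher again than 0 h at 8 h, with 21.7, 18.4 and 19.1 CPM (0.48, adjusted p = 0.000408). Fdps, farnesyl diphosphate synthase, was among the lowest members, with 11.4, 7.96 and 9.39 CPM at 2 h, against 5.77, 5.69 and 6.14 CPM at 0 h (log2 fold change 0.71, SE 0.18, adjusted p = 0.00746). Its 2 h libraries were spread, and the 2 h call did not pass without any single 0 h library or without 2 h replicate 1 or 3 (across alternatives adjusted p was 3.97e-06 to 0.0474).

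Acat2, Idi1 and Ggps1 were not called at 2, 4 or 8 h against 0 h and were called at 24 h. Idi1 encodes isopentenyl diphosphate isomerase. It had 43.2, 44.6 and 26.7 CPM at 24 h, against 64.4, 77.9 and 72.7 CPM at 0 h (log2 fold change -0.91, SE 0.14, adjusted p = 3.49e-05), with no overlap, and 24 h replicate 3 was the lowest library. Without that library the log2 fold change was -0.71, adjusted p = 5.12e-08. Acat2, the cytosolic acetoacetyl-CoA thiolase, had 37.4, 38.9 and 29.1 CPM at 24 h, against 43.9, 47.5 and 45.0 CPM at 0 h (log2 fold change -0.37, SE 0.09, adjusted p = 0.0013, and -0.25, adjusted p = 0.000679 without 24 h replicate 3). On unscaled library totals its log2 fold change was -0.10, adjusted p = 0.28. Acat2 has a close paralog, Acat3, and reads that match both are uncertain. Ggps1, which makes geranylgeranyl diphosphate for protein prenylation, moved the other way, with 66.8, 65.3 and 54.3 CPM at 24 h, against 44.7, 43.3 and 44.9 CPM at 0 h (log2 fold change 0.49, SE 0.08, adjusted p = 3.72e-05, and 0.58, adjusted p = 1.78e-08 without 24 h replicate 3). Ggps1 shares exon sequence with Arid4b on the other strand, which had 62.9 CPM at 24 h and 40.3 CPM at 0 h, so that reads of the overlap cannot be told apart. Single libraries decided some smaller calls in this role. Mvk at 2 h did not pass without 0 h replicate 3 or 2 h replicate 2, Pmvk at 2 h without 0 h replicate 3 or 2 h replicate 3, and Hmgcs1 at 8 h in 9 of the 15 fits that each left out a library. The adjusted p over all alternatives ran from 1.93e-06 to 0.0119, from 1.27e-07 to 0.0169 and from 8.83e-05 to 0.0564 for these calls. The steps of Hmgcs1 and Mvd at 4 h against 2 h were lost in 5 and 7 of those fits, with adjusted p from 0.000106 to 0.0321 and from 0.00163 to 0.0405.

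The squalene and sterol steps held genes on both sides of 0 h from 4 h on. Of the 11 genes 5 were higher at 2 h (45.5%, against 6.6% of all genes tested). By 4 h 3 were higher and 3 lower (27.3% each, against 18.1% and 19.9%). The 8 and 24 h comparisons each had 1 higher and 4 lower (9.09% and 36.4%). Backgrounds were 25.3% and 25.1% at 8 h, and 30.7% and 28.1% at 24 h. The 24 h counts were 3 and 4 without 24 h replicate 3, since Msmo1 and Sc5d then passed. Msmo1, the C4-methylsterol oxidase, had 64.3, 63.6 and 59.9 CPM at 2 h, against 25.2, 30.1 and 28.0 CPM at 0 h (log2 fold change 1.17, SE 0.13, adjusted p = 8.19e-06). Its level was 226% of the 0 h mean, with the lowest 2 h library far above the highest at 0 h. It had 52.2, 51.0 and 53.1 CPM at 4 h (0.91, adjusted p = 2.41e-05 against 0 h) and 40.3, 38.4 and 41.2 CPM at 8 h (0.53, adjusted p = 0.00221). The 8 h call did not pass without 0 h replicate 1 or without any single 8 h library (across alternatives adjusted p was 2.24e-07 to 0.018). The 24 h libraries had 41.9, 41.4 and 26.8 CPM, when replicate 3 lay within the 0 h range, and the difference narrowly missed the threshold (adjusted p = 0.0108). Without that library it passed (log2 fold change 0.59, adjusted p = 1.51e-07). Nsdhl, the sterol dehydrogenase that works after Msmo1, had 76.6, 80.1 and 84.9 CPM at 2 h, against 51.5, 54.2 and 50.6 CPM at 0 h (log2 fold change 0.63, SE 0.09, adjusted p = 0.000136). It kept 79.3, 76.2 and 70.8 CPM at 4 h (0.53, adjusted p = 0.000185). It then fell at 8 h against 4 h (-0.39, adjusted p = 0.00662) and at 24 h against 8 h (-0.38, adjusted p = 0.00309, and -0.26, adjusted p = 0.00223 without 24 h replicate 3). The last of these did not pass without 8 h replicate 1 or 3 (across alternatives adjusted p was 0.000352 to 0.05). Sc5d, lathosterol oxidase, had 67.3, 68.9 and 67.2 CPM at 2 h, against 48.2, 50.9 and 49.4 CPM at 0 h (log2 fold change 0.45, SE 0.06, adjusted p = 4.29e-05), with no overlap between the groups. It fell at 4 h against 2 h (-0.23, adjusted p = 0.00792). A higher level at 4 h than at 0 h was called for Sc5d at a log2 fold change of 0.23, but not in 10 of the 15 fits without a library (across alternatives adjusted p was 0.000241 to 0.0817). Its fall from 2 h was lost in 6 of them (across alternatives 0.000715 to 0.069).

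Lss and Cyp51 rose and then went below their 0 h level. Lss encodes lanosterol synthase. It had 39.3, 38.5 and 37.6 CPM at 2 h, against 23.9, 25.7 and 24.1 CPM at 0 h (log2 fold change 0.65, SE 0.08, adjusted p = 4.18e-05), and 17.1, 14.6 and 14.4 CPM at 8 h (log2 fold change -0.68, SE 0.09, adjusted p = 5.39e-06 against 0 h). The 24 h libraries had 14.2, 13.4 and 16.2 CPM (log2 fold change -0.75, SE 0.09, adjusted p = 1.22e-06, and -0.83, adjusted p = 1.12e-08 without 24 h replicate 3). Lss was thus above all 0 h libraries at 2 h and below all of them at 8 and 24 h. Both steps between, 4 h against 2 h (-0.78, adjusted p = 3.8e-06) and 8 h against 4 h (-0.54, adjusted p = 0.000331), passed. Cyp51, lanosterol demethylase, had 124, 125 and 129.6 CPM at 2 h, against 72.5, 79.6 and 78.0 CPM at 0 h (log2 fold change 0.72, SE 0.10, adjusted p = 7.37e-05). It was lower at 4 h than at 2 h (-0.47, adjusted p = 0.00173). Its 24 h libraries had 67.1, 64.9 and 48.3 CPM (log2 fold change -0.35, SE 0.10, adjusted p = 0.00504), with replicate 3 the lowest. Without that library the log2 fold change was -0.22, adjusted p = 0.00433. The 24 h call for Cyp51 did not pass without 0 h replicate 2 or 3. On unscaled library totals the log2 fold change was -0.08, adjusted p = 0.459. Its step at 8 h against 4 h (-0.42, adjusted p = 0.00627) was lost in 11 of the 15 fits without a library, and that of Nsdhl in 12, with adjusted p from 5.24e-06 to 0.042 and from 1.89e-05 to 0.0387 over the alternatives.

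Sqle, Hsd17b7 and Dhcr7 were not called at 2 h and were lower at 4 and 8 h. Sqle, squalene epoxidase, had 48.6, 40.9 and 40.8 CPM at 8 h, against 63.7, 71.8 and 65.5 CPM at 0 h (log2 fold change -0.62, SE 0.09, adjusted p = 1.67e-05). It had 44.6, 42.9 and 45.4 CPM at 24 h (-0.60, adjusted p = 1.94e-05, and -0.61, adjusted p = 2.07e-06 without 24 h replicate 3). The 4 h fall (-0.35, adjusted p = 0.00371) did not pass without 0 h replicate 2, 4 h replicate 2 or 4 h replicate 3 (across alternatives adjusted p was 0.000137 to 0.0241). Dhcr7, which encodes the reductase of the last step to cholesterol, had 57.6, 52.4 and 51.3 CPM at 8 h, against 79.4, 84.1 and 76.8 CPM at 0 h (log2 fold change -0.57, SE 0.08, adjusted p = 1.77e-05). It remained at 56.7, 58.3 and 67.5 CPM at 24 h (-0.40, adjusted p = 0.000434, and -0.48, adjusted p = 3.4e-06 without 24 h replicate 3), or -0.12, adjusted p = 0.238 on unscaled library totals. Hsd17b7, a 3-ketosteroid reductase, dipped and came back, and was the 1 member called higher at 24 h than at 8 h. It had 42.1, 44.5 and 45.5 CPM (0 h), 48.0, 51.7 and 50.1 CPM (2 h), 30.5, 29.4 and 28.9 CPM (4 h), 29.5, 25.2 and 25.8 CPM (8 h) and 44.8, 43.0 and 44.8 CPM (24 h). The 4 and 8 h libraries were all below the 0 h libraries, and the 24 h libraries lay within the range of 0 h. On unscaled library totals its 24 h mean was 121.6% of 0 h and was called higher. The fall was called at 4 h (log2 fold change -0.57, SE 0.07, adjusted p = 5.73e-06) and 8 h (log2 fold change -0.71, SE 0.07, adjusted p = 3.26e-07), and the return at 24 h against 8 h (log2 fold change 0.72, SE 0.07, adjusted p = 1.19e-06, and 0.71, adjusted p = 5.96e-08 without 24 h replicate 3). The E-box shown above for Hsd17b7 is also in windows of Dhcr7, Scap, Sc5d, Insig1 and Abca1. Dhcr7 and Scap fell at 4, 8 and 24 h, Sc5d and Insig1 rose at 2 h, and Abca1 was not tested. In Dhcr7 the E-box begins 164 bases before a later annotated start and lies after an earlier one. Any part of the motif in these changes was not tested.

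Of the remaining sterol genes Tm7sf2 was called at 24 h, and Fdft1 and Ebp were not called. Fdft1, squalene synthase, was between 79.97 and 103.5 CPM in all libraries and was not called in any of the 7 comparisons. Its exons overlap those of Ctsb on the other strand, at 855 CPM at 24 h and 1893 CPM at 0 h. Ebp, the sterol isomerase, was between 25.9 and 37.5 CPM and was also not called. Tm7sf2, a sterol reductase, was low, with 133, 133 and 212 counts at 24 h, against 82, 92 and 53 counts at 0 h (log2 fold change 0.84, SE 0.21, adjusted p = 0.00196). Without 24 h replicate 3 its log2 fold change was 0.59, adjusted p = 0.0055. Without 0 h replicate 3 the call was lost (across alternatives adjusted p was 9.38e-05 to 0.0291), and part of its exon sequence is shared with Vps51 on the same strand.

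The regulators of SREBP did not move as a block. Of 5 genes 2 were higher at 2 h (40%, against 6.6% of all genes tested). The number higher was 1 at 4 h, then 2 and 3 at the last times, or 20%, 40% and 60%. Of all genes tested 18.1%, 25.3% and 30.7% were higher at these times. Scap was the 1 gene lower at each of them (20%, against 19.9%, 25.1% and 28.1%). Scap, the escort of SREBP, fell furthest. It had 60.6, 59.0 and 55.7 CPM (0 h), 50.7, 47.8 and 43.3 CPM (2 h), 27.9, 23.6 and 20.7 CPM (4 h), 16.0, 14.1 and 14.3 CPM (8 h) and 16.1, 18.1 and 26.3 CPM (24 h). From 2 h on every library was below every 0 h library. The 2 h difference was not called (log2 fold change -0.31, adjusted p = 0.139). It was called with the compared times alone and without 24 h replicate 3. The 8 h mean was 25.4% of the 0 h mean (log2 fold change -1.98, SE 0.15, adjusted p = 1.74e-08). The fall was called at 4 h (log2 fold change -1.28, SE 0.15, adjusted p = 2.97e-06) and at 24 h (log2 fold change -1.53, SE 0.15, adjusted p = 1.8e-07). Replicate 3 was the highest at 24 h, and the value without it was -1.77, adjusted p = 2.09e-12. Both steps down, 4 h against 2 h (-0.97, adjusted p = 0.000114) and 8 h against 4 h (-0.70, adjusted p = 0.00348), passed. The last of these did not pass without 4 h replicate 1, 8 h replicate 2 or 8 h replicate 3 (across alternatives adjusted p was 1.28e-06 to 0.0201). Scap lies at chr9:110333288-110384950, + strand, and the gene 5830462I19Rik on the other strand, whose exons it overlaps, had 3.26 CPM at 8 h, against 14.3 CPM at 0 h. Exons of genes on the other strand also overlap those of Cyp51 (Akap9), Lss (4930483K19Rik), Idi1 (Gm48574) and Elovl6 (Gm35986), and the strand of those reads is unknown.

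The INSIG genes, whose products retain SCAP, went the other way. Insig1 had 28.1, 29.1 and 27.7 CPM (0 h), 43.3, 50.2 and 48.5 CPM (2 h), 35.8, 33.1 and 35.5 CPM (4 h), 44.3, 43.4 and 45.6 CPM (8 h) and 58.4, 59.1 and 45.3 CPM (24 h). It was up at 2 h (log2 fold change 0.74, SE 0.09, adjusted p = 3.19e-05) and lower again at 4 h against 2 h (-0.44, adjusted p = 0.00171). It was up against 0 h at 8 h (log2 fold change 0.65, SE 0.09, adjusted p = 1.96e-05) and 24 h (log2 fold change 0.94, SE 0.09, adjusted p = 2.48e-07). No library at 2 h or later overlapped with those at 0 h, and without 24 h replicate 3 the 24 h value was 1.05, adjusted p = 7.59e-12. Its 4 h fall from 2 h did not pass without 2 h replicate 2 (across alternatives adjusted p was 3.71e-06 to 0.0123). Insig2 had 32.3, 32.5 and 37.3 CPM at 8 h, against 20.6, 20.4 and 24.8 CPM at 0 h (log2 fold change 0.63, SE 0.11, adjusted p = 0.000116). It was also higher at 4 h (0.53, adjusted p = 0.000806). Its 24 h libraries, 32.1, 29.3 and 23.8 CPM, overlapped those at 0 h. The 24 h call (0.37, adjusted p = 0.00665, and 0.49, adjusted p = 5.75e-05 without 24 h replicate 3) was lost in 12 of the 15 fits without a library (across alternatives adjusted p was 3.33e-05 to 0.0686). The 4 h call was lost without 4 h replicate 3 (across alternatives 9.37e-06 to 0.0103).

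Of the genes of the SREBP factors Srebf1 was called higher at 2 and 24 h, and Srebf2 was not called higher at any time. Srebf1, which encodes SREBP-1, had 144, 144 and 139.6 CPM at 2 h, against 92.5, 87.0 and 82.7 CPM at 0 h (log2 fold change 0.71, SE 0.14, adjusted p = 0.00149), without overlap. The call was lost without 0 h replicate 3 (across alternatives adjusted p was 5.82e-15 to 0.0101). It had 135, 101 and 114 CPM at 4 h and 125, 111 and 97.0 CPM at 8 h, all above the 0 h libraries, yet neither time passed. At 24 h it had 124, 126 and 182 CPM, with 24 h replicate 3 the highest (log2 fold change 0.72, SE 0.14, adjusted p = 0.000258, and 0.51, adjusted p = 5.84e-05 without that library). The counts of Srebf1 share exon sequence with Rai1 on the other strand, which had 83.1 CPM at 2 h, 163 CPM at 24 h and 109 CPM at 0 h. Srebf2, which encodes SREBP-2, had 380.5, 377 and 378 CPM at 2 h and 297, 291 and 271 CPM at 0 h, a difference that missed the threshold (adjusted p = 0.023) although the groups did not overlap. It was lower at 4 h, with 272, 225 and 227 CPM, than at 2 h (log2 fold change -0.65, SE 0.12, adjusted p = 0.000712). Srebf2 had 261, 223 and 210 CPM at 8 h and 259, 265 and 369 CPM at 24 h, with 24 h replicate 3 the highest. Neither 8 h against 0 h (-0.31, adjusted p = 0.0359) nor 24 h against 8 h (0.36, adjusted p = 0.0195) was called. They were called in 4 and 5 alternatives.

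Stard4 and Abcg1, the 2 sterol transport genes tested, were called against 0 h at 24 h and at no earlier time. At 24 h 58.8% of all tested genes were called. Stard4, a carrier of sterol between membranes, had 131, 136 and 111 CPM at 24 h, against 154, 160.0 and 158 CPM at 0 h (log2 fold change -0.32, SE 0.07, adjusted p = 0.000808, and -0.24, adjusted p = 0.000426 without 24 h replicate 3). On unscaled library totals the log2 fold change was -0.05, adjusted p = 0.519, and in the authors' TPM its 24 h level was 101.723% of 0 h, against 80.1% in CPM. It was higher at 8 h than at 4 h (0.30, adjusted p = 0.00635), a call lost in 12 of the 15 fits without a library (across alternatives adjusted p was 3.61e-05 to 0.0437). It was lower at 24 h than at 8 h (-0.40, adjusted p = 0.000265, and -0.32, adjusted p = 3.92e-05 without 24 h replicate 3). Abcg1, which exports cholesterol to lipoproteins, was within 20.1 to 26.9 CPM up to 8 h. It had 10.6, 12.1 and 14.4 CPM at 24 h, against 23.3, 20.1 and 21.4 CPM at 0 h (log2 fold change -0.80, SE 0.10, adjusted p = 2.95e-06, and -0.92, adjusted p = 5.67e-09 without 24 h replicate 3). It fell as well against 8 h (-0.85, adjusted p = 6.59e-06). Abca1, the exporter to lipid-poor apolipoprotein, was not tested, since it had 11 counts over all 15 libraries. Libraries had 0 to 3 counts, too few for a comparison at this depth. A library with 0 counts allows up to 3, which is 0.111 to 0.116 CPM on unscaled library totals, for counting error alone.

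Lipogenesis genes held the largest fall of a member against 0 h, that of Fasn, and Fasn and Acaca parted from the desaturases at 2 h. Of the 6 genes 2 were higher and 2 lower at 2 h (33.3% each, against 6.6% and 8.59%). By 4 h 1 was higher and 4 lower (16.7% and 66.7%, against 18.1% and 19.9%). The number lower was 5 at 8 h (83.3%, against 25.1%) and 6 at 24 h (100%, against 28.1%), with 0 higher at both times. Without 24 h replicate 3 the 24 h counts were the same. Fasn, fatty acid synthase, which assembles palmitate, had 406, 387 and 343 CPM (0 h), 195, 187 and 185 CPM (2 h), 111, 80.2 and 81.9 CPM (4 h), 95.2, 81.1 and 77.9 CPM (8 h) and 94.4, 104 and 175 CPM (24 h). At 2 h, when 14 members had risen, Fasn was at 49.96% of its 0 h mean (log2 fold change -1.001, SE 0.18, adjusted p = 0.000786). It was at 24.0% at 4 h (log2 fold change -2.06, SE 0.19, adjusted p = 2.28e-07) and 22.4% at 8 h (log2 fold change -2.16, SE 0.19, adjusted p = 7.78e-08). By 24 h it was at 32.9% (log2 fold change -1.61, SE 0.18, adjusted p = 1.33e-06). Replicate 3 was well above the other 24 h libraries but below all 0 h libraries, and the value without it was -1.93, adjusted p = 1.85e-12. Fasn lies at chr11:120805846-120824547, - strand, and none of its exons overlaps those of another annotated gene. Acaca, acetyl-CoA carboxylase, which makes the malonyl-CoA that FASN uses, fell in parallel. It had 137, 125 and 123 CPM (0 h), 94.5, 90.4 and 93.5 CPM (2 h), 74.5, 66.2 and 64.2 CPM (4 h), 63.4, 58.1 and 58.1 CPM (8 h) and 57.5, 59.5 and 83.4 CPM (24 h). No library at 2 h or later overlapped with 0 h. The calls were made at 2 h (-0.47, adjusted p = 0.00578), 4 h (log2 fold change -0.91, SE 0.11, adjusted p = 6.63e-06), 8 h (log2 fold change -1.10, SE 0.11, adjusted p = 5.37e-07) and 24 h (-0.95, adjusted p = 2.07e-06, and -1.14, adjusted p = 3.84e-12 without 24 h replicate 3). The 2 h call was lost without any single 0 h or 2 h library (across alternatives adjusted p was 2.17e-10 to 0.0307), so that Fasn was then the 1 member lower at 2 h. The call at 4 h against 2 h (-0.44, adjusted p = 0.00708) was lost in 7 of the 15 such fits (across alternatives 3.5e-06 to 0.0253).

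Elovl6 and Acly changed after 2 h. Elovl6, which lengthens palmitate to stearate, had 47.9, 47.0 and 48.7 CPM at 0 h and 44.1, 45.9 and 45.9 CPM at 2 h. It then had 17.5, 17.8 and 16.8 CPM (4 h), 18.8, 14.97 and 17.3 CPM (8 h) and 14.2, 14.7 and 16.7 CPM (24 h). Its fall came between 2 and 4 h (log2 fold change -1.38, SE 0.08, adjusted p = 1.05e-08), and later steps were not called. Against 0 h it was lower at 4 h (log2 fold change -1.46, SE 0.09, adjusted p = 1.31e-09), 8 h (-1.49, adjusted p = 5.45e-10) and 24 h (-1.65, adjusted p = 1.15e-10, and -1.73, adjusted p = 6.01e-14 without 24 h replicate 3). Acly, ATP-citrate lyase, which supplies cytosolic acetyl-CoA to both routes, had 386, 358 and 364 CPM at 2 h and 377, 368 and 368 CPM at 0 h. It was lower at 4 h, with 315, 271 and 279 CPM (log2 fold change -0.36, SE 0.07, adjusted p = 0.000608), and at 8 h, with 238, 212 and 213 CPM (log2 fold change -0.75, SE 0.07, adjusted p = 2.73e-07). The 24 h libraries had 218, 217 and 240.5 CPM (-0.72, adjusted p = 2.91e-07, and -0.77, adjusted p = 9.84e-10 without 24 h replicate 3). The steps at 4 h against 2 h (-0.36, adjusted p = 0.00135) and at 8 h against 4 h (-0.38, adjusted p = 0.00127) were called.

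The stearoyl-CoA desaturases, which put the double bond into stearate and palmitate, rose at 2 h with the sterol genes and then fell. Scd2 had 456, 432 and 419 CPM (0 h), 826, 873 and 882 CPM (2 h), 615, 537 and 542 CPM (4 h), 467, 415 and 390.5 CPM (8 h) and 264, 275 and 369 CPM (24 h). It was at 197% of its 0 h mean at 2 h (log2 fold change 0.98, SE 0.11, adjusted p = 1.06e-05), and its lowest 2 h library was above every library of the other times. It was lower at 4 h than at 2 h (-0.61, adjusted p = 0.000526). By 24 h it was below every 0 h library (log2 fold change -0.53, SE 0.11, adjusted p = 0.000516, and -0.69, adjusted p = 2.75e-08 without 24 h replicate 3). On unscaled library totals the log2 fold change was -0.25, adjusted p = 0.0731. The 4 h call against 0 h (0.37, adjusted p = 0.00974) was lost in 12 of the 15 fits without a library (across alternatives adjusted p was 3.32e-05 to 0.0715). Scd1 also rose at 2 h and fell later, on far fewer counts. It had 104, 121 and 115 counts at 2 h, against 38, 43 and 31 counts at 0 h (log2 fold change 1.57, SE 0.23, adjusted p = 0.000141). At 24 h it had 9, 11 and 14 counts (log2 fold change -1.94, SE 0.31, adjusted p = 4.42e-05, and -2.11, adjusted p = 2.09e-05 without 24 h replicate 3). It fell at 4 h against 2 h (-1.08, adjusted p = 0.0015) and at 8 h against 4 h (-1.55, adjusted p = 0.000761). The 8 h call against 0 h (-1.07, adjusted p = 0.00419) was lost without 0 h replicate 1, 0 h replicate 2, 8 h replicate 1 or 8 h replicate 3 (across alternatives 0.000104 to 0.0209). Scd1 and Scd2 are close paralogs on chromosome 19, and the handling of reads that match both was not given in the sources used here.

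**Figure D4:**
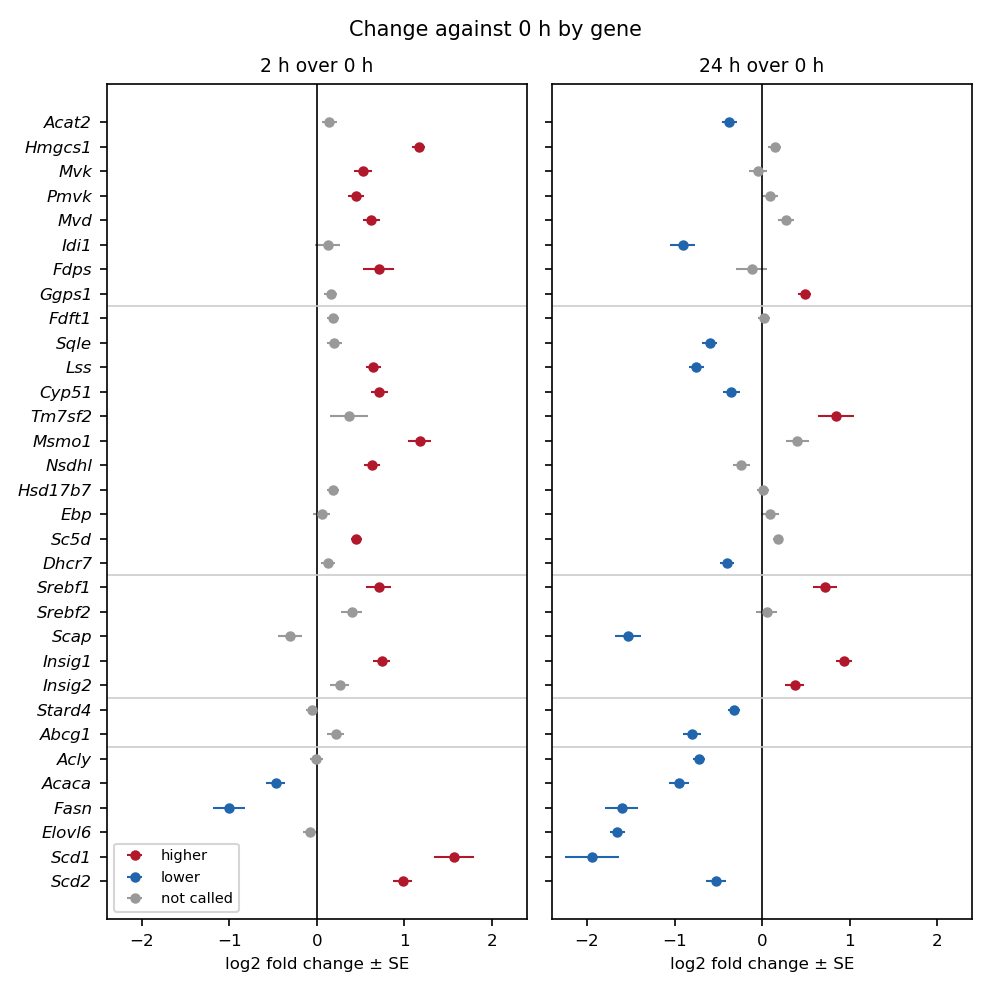
Fitted log2 fold change with its SE (x axis) of each tested gene at 2 h over 0 h (left) and at 24 h over 0 h (right), with red for called higher, blue for called lower and grey for not called, and grey lines between the roles. Msmo1, Hmgcs1 and Scd1 lie furthest right at 2 h, and Scd1, Elovl6, Fasn and Scap lie furthest left at 24 h.

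On a scale per length, the authors' TPM, the members spanned a wide range at 0 h. The highest mean levels at 0 h were those of Scd2 (209.6 TPM), Acly (184 TPM), Srebf2 (151 TPM), Fasn (90.7 TPM) and Stard4 (73.9 TPM). At 8 h the level of Fasn was 20.8 TPM. Scd1 had 2.41 TPM at 2 h and 0.798 TPM at 0 h, while Scd2 had 421 TPM at 2 h, so that Scd2 was by far the main desaturase message of the pair at both times.

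Other genes of these routes, in 8 lists, moved in both directions. Of 80 tested genes 9 were higher at 2 h (11.25%, against 6.6% of all genes tested) and 7 lower (8.75%, against 8.59%). At 4 h 11 were higher (13.75%, against 18.1%) and 23 lower (28.75%, against 19.9%). At 8 h 18 were higher (22.5%, against 25.3%) and 29 lower (36.25%, against 25.1%). At 24 h 18 were higher (22.5%, against 30.7%) and 33 lower (41.25%, against 28.1%), or 19 and 38 without 24 h replicate 3. In fatty acid synthesis 14 genes were tested. At 2 h Slc25a1, the mitochondrial citrate carrier (log2 fold change 0.35, adjusted p = 0.00126), Fads1, the delta-5 desaturase (log2 fold change 0.47, adjusted p = 0.00376), and Acss2, which makes acetyl-CoA from acetate (log2 fold change 0.33, adjusted p = 0.00468), were the 3 that rose, and Hacd3, a dehydratase of fatty acid elongation, was the 1 that fell (log2 fold change -0.46, adjusted p = 0.00117). By 24 h Slc25a1 had fallen below 0 h, with 15.4 CPM at 24 h against 37.4 CPM at 0 h (log2 fold change -1.28, adjusted p = 2.54e-10, and -1.26 without 24 h replicate 3). Among the genes of SREBP processing 6 were tested, and Mbtps2, the site-2 protease that releases SREBP from the membrane, was lower at 4 h (log2 fold change -0.89, adjusted p = 1.87e-08), 8 h (log2 fold change -1.07, adjusted p = 1.32e-09) and 24 h, with 19.9 CPM at 24 h against 38.3 CPM at 0 h (log2 fold change -0.94, adjusted p = 3.61e-09, and -0.90 without 24 h replicate 3). Mbtps1, the site-1 protease, was lower at 24 h (log2 fold change -0.54, adjusted p = 4.46e-05, and -0.65 without 24 h replicate 3). Thus Scap and Mbtps2 both fell while Insig1 and Insig2 rose.

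Of the branches that use isoprenoid diphosphates, 12 genes were tested, and the number lower was 2 (2 h), 6 (4 h), 9 (8 h) and 8 (24 h), or 16.7%, 50%, 75% and 66.7% of them. Of all genes tested 8.59%, 19.9%, 25.1% and 28.1% were lower at these times. At each of the last 3 times 1 was higher, and at 24 h 0 were without 24 h replicate 3. Pdss1, which makes the side chain of ubiquinone, had 10.9 CPM at 24 h against 33.0 CPM at 0 h (log2 fold change -1.59, adjusted p = 1.33e-10, and -1.53 without 24 h replicate 3), and Nus1, a subunit of the enzyme that makes dolichol chains, had 40.8 CPM at 24 h against 105 CPM at 0 h (log2 fold change -1.36, adjusted p = 1.77e-11, and -1.32 without 24 h replicate 3). In glycerolipid synthesis Gpam, the mitochondrial acyltransferase of the first step, had 9.16 CPM at 8 h against 29.8 CPM at 0 h (log2 fold change -1.70, adjusted p = 2.16e-08), and Agpat5 had 25.1 CPM at 4 h against 69.2 CPM at 0 h (log2 fold change -1.46, adjusted p = 8.62e-10). Acsl4, an acyl-CoA synthetase for polyunsaturated chains, was higher at 2 h (log2 fold change 0.49, adjusted p = 0.000516). Among uptake and storage genes, Scarb1, a lipoprotein receptor, had 18.0 CPM at 24 h against 56.5 CPM at 0 h (log2 fold change -1.65, adjusted p = 5.74e-10, and -1.73 without 24 h replicate 3), while Lipa, the lysosomal lipase that frees cholesterol from its esters, had 169 CPM at 24 h against 95.9 CPM at 0 h (log2 fold change 0.82, adjusted p = 2.36e-09, and 0.86 without 24 h replicate 3). Of the LXR list, Abca7, a transporter related to Abca1, had 48.3 CPM at 24 h against 8.02 CPM at 0 h (log2 fold change 2.59, adjusted p = 6.43e-08, and 2.15 without 24 h replicate 3).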

How the data were processed

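RNA-seq was performed on 15 libraries of mouse T-ALL cells, 3 at each of 0, 2, 4, 8 and 24 h after doxycycline. For each library the authors deposited raw counts per gene and TPM. Their notes to GEO list the build mm10 and the tools STAR 2.5.4b, cutadapt 1.16 and featureCounts. The annotation release and strand setting were not given in the sources used here. Gene IDs were matched to GENCODE M21 on GRCm38 (53274 of 53379 mouse IDs), and promoter windows are those of RefSeq on GRCm38.p6. Counts were filtered with filterByExpr, scaled by TMM and tested with edgeR 4.0.16 (R 4.3.3) by glmQLFit and glmQLFTest, with 1 mean per time point over all libraries and Benjamini-Hochberg adjustment over 14485 genes, at an adjusted p under 0.01. CPM per library were computed on TMM-scaled totals, and the median total was 26672358 counts. The deposited TPM were used for levels between genes and as another scale. Alternatives were RLE, library totals, upper-quartile factors, no filter, 10 counts in every library, DESeq2 1.42.0, the compared times alone, an adjusted p under 0.05, a replicate block, and leaving out each library. The test was run on simulated data with known changes. Every member is named. Of the 8 context lists, up to 4 genes per list and comparison with the largest called change at 10 CPM or more could be named, but some genes covered by that rule are not reported here. Members and lists were chosen with earlier results of these data known.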

Additional observations from a re-analysis of the deposited data

How the results depend on the processing

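Of the 101 calls made for single members over the 7 comparisons, 67 held under every alternative that gave a value, which were 23 for each gene but 22 for Scd1 (left out by the filter of 10 counts in every library), 34 were lost under at least 1 of them, and 0 changed sign. Of the 123 member comparisons that were not called, 56 were called under at least 1 alternative. Counts of called members moved with the scaling and with other choices. The share of all tested genes called under each alternative was not computed, so the counts under alternatives have no background. On unscaled library totals the median log2 fold change over all tested genes was 0.12 (4 h), 0.19 (8 h), 0.35 (24 h) and 0.21 (24 h against 8 h), and with upper-quartile factors it was 0.18, 0.24 and 0.22 at 4, 8 and 24 h. Library totals gave 1 lower at 2 h, 10 higher at 8 h, 13 higher at 24 h beside 10 lower, 2 higher and 5 lower at 8 h against 4 h, and 9 higher and 4 lower at 24 h against 8 h. Upper-quartile factors gave 14 higher at 4 h beside 7 lower, 14 higher at 8 h beside 9 lower, 9 higher at 24 h beside 12 lower, and 2 higher and 5 lower at 8 h against 4 h. No low-count filter gave 0 higher at 8 h against 4 h and 5 higher at 24 h against 8 h. At least 10 counts in every library gave 8 higher at 24 h, 2 higher at 8 h against 4 h and 3 higher at 24 h against 8 h. The compared times alone gave 21 higher at 2 h, 3 higher at 24 h, 1 higher at 4 h against 2 h, 2 higher at 8 h against 4 h and 2 lower at 24 h against 8 h. DESeq2 gave 2 higher at 8 h against 4 h and 4 higher at 24 h against 8 h. An adjusted p under 0.05 gave 15 higher at 4 h, 8 higher at 24 h, 2 higher at 8 h against 4 h and 7 higher at 24 h against 8 h. The cause of these shifts was not tested.

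Leaving out a library gave 10 to 16 higher and 1 to 3 lower at 2 h. The ranges were 4 to 13 and 7 to 10 (4 h), 4 to 9 and 9 to 12 (8 h), and 4 to 8 and 14 to 16 (24 h). By step it gave 0 higher throughout and 12 to 20 lower at 4 h against 2 h, 0 to 2 and 4 to 12 at 8 h against 4 h, and 1 to 4 and 5 to 7 at 24 h against 8 h. The count of 13 at 4 h was without 24 h replicate 3 and that of 4 without 4 h replicate 3. Whether the replicate numbers pair the libraries could not be decided. Deviations from the group means correlated at −0.31 to 0.21 between libraries of the same number, above 0.1 in 3 of 30 pairs. Between 4 and 8 h the correlations were 0.21, 0.08 and 0.12 for replicates 1, 2 and 3. Libraries of different numbers had −0.17 to 0.06 between these times. The lowest value for a shared number, −0.31, was that of replicate 3 at 8 and 24 h. With the number as a replicate block, 1 member was lower at 2 h, and 0 were higher and 5 lower at 8 h against 4 h. On the authors' TPM the 24 h level of Stard4 was 101.723% of 0 h, the reverse of its called direction in CPM. The level was also on the other side of 0 h in TPM for Fdps, Mvk and Nsdhl at 24 h (118%, 123% and 108%) and Acly at 2 h (101%), which were not called, and 41 of the 128 levels relative to 0 h moved by more than the spread between replicates, as did 65 on library totals. Depth limits Abca1, at 11 counts in all, and Scd1 at 8 and 24 h.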

Other observations

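The remaining lists gave values that belong to neither route of synthesis. Of the fatty acid oxidation genes 11 were tested, and the number higher than 0 h was 1 (2 h), 3 (4 h) and 5 (8 h), against 6.6%, 18.1% and 25.3% of all genes tested, whereas 6 were lower and 0 higher at 24 h. When 24 h replicate 3 was left out, 6 were lower and 2, Slc25a20 and Acadm, were higher at 24 h (log2 fold change 0.32 and 0.35, adjusted p = 0.000156 and 0.00014). These were named after their values were seen. Acadl, a long-chain acyl-CoA dehydrogenase, had 127 CPM at 8 h against 76.4 CPM at 0 h (log2 fold change 0.73, adjusted p = 5.41e-07). By 24 h Hadh, which encodes the mitochondrial hydroxyacyl-CoA dehydrogenase, had 65.8 CPM at 24 h against 151 CPM at 0 h (log2 fold change -1.20, adjusted p = 3.43e-08, and -1.06 without 24 h replicate 3), and Hadhb, the thiolase subunit of the trifunctional protein, had 84.1 CPM at 24 h against 158 CPM at 0 h (log2 fold change -0.91, adjusted p = 2e-07, and -0.79 without 24 h replicate 3). The LXR list had 3 higher and 1 lower of 8 tested at 24 h, and the uptake and storage list had 5 higher and 1 lower of 11. Glycerolipid synthesis had 3 higher and 5 lower of 13, SREBP processing had 3 lower of 6, and the other sterol genes had 2 higher and 2 lower of 5. Without 24 h replicate 3 the number lower was 2 in the LXR list, 2 in uptake and storage and 8 in glycerolipid synthesis, and the other counts named here were the same. Backgrounds for the counts with all libraries are the 30.7% higher and 28.1% lower of all tested genes at 24 h.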
